A study of Mus musculus with 34 samples.

Results

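The 8 genes described here are closely related protease inhibitor genes of 2 neighbouring clusters on mouse chromosome 12: Serpina1a, Serpina1b, Serpina1c, Serpina1d and Serpina1e, which encode alpha-1-antitrypsin, and Serpina3k, Serpina3m and Serpina3n, which are related to antichymotrypsin. They were picked by symbol, and all 8 were found among the 51368 gene rows of the quantification table. The study prepared liver RNA of 1 wild-type C57BL/6J mouse, aged 12 weeks and described as male in one label field and female in another, by 3 selection methods: poly(A) selection, removal of ribosomal RNA (rRNA) by pull-down, and removal of rRNA by enzymatic digestion. Each method had 9 libraries, 1 for every combination of 3 fragment lengths (long, medium, short) and 3 temperature ramp rates in the polymerase chain reaction (slow, medium, fast), from 200 ng of RNA. Unselected RNA gave 3 liver libraries in each of 2 batches and 1 heart library, from 20 ng, with the slow ramp and medium fragments. The poly(A) libraries belonged to batch 1 and both rRNA removal methods to batch 2, so poly(A) selection was never compared with either of these within a batch. Unselected libraries of both batches give the batch difference in unselected RNA, but a batch difference peculiar to selected RNA cannot be told apart from the method. Selected and unselected libraries differ in the amount of RNA used, so selection and input amount cannot be told apart either. The digestion libraries were also made with another kit, modified to take the same adapters. All 33 liver libraries share 1 animal, so every spread and p-value below measures variation between library preparations and not between mice.

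Alpha-1-antitrypsin is secreted by hepatocytes into the blood, where it blocks neutrophil elastase and related serine proteases. Like other serpins, it offers the protease an exposed reactive-centre loop, and cleavage of that loop traps the enzyme in a dead complex. Humans carry a single gene for alpha-1-antitrypsin and a single one for antichymotrypsin, while mice carry tandem copies of each, and the copies differ most in the reactive-centre loop, which sets the protease that is caught.

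The stretch of coding sequence that varies most between the 5 Serpina1 genes encodes this loop and is shown because reads can be told apart there. It covers bases 1101 to 1160 of the aligned coding sequence, which leaves out the extra coding bases at the start of Serpina1a, and capitals mark the 18 positions at which at least 1 gene differs. In GRCm38 the stretch lies in coding exon sequence on the minus strand, at chr12:103853757-103853816 in Serpina1a, chr12:103728324-103728383 in Serpina1b, chr12:103895094-103895153 in Serpina1c, chr12:103763762-103763821 in Serpina1d and chr12:103947100-103947159 in Serpina1e. Sequences come from the GENCODE M21 transcripts.
Serpina1a: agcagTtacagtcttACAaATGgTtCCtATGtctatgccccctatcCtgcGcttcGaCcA
Serpina1b: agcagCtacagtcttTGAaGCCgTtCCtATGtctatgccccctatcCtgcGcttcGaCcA
Serpina1c: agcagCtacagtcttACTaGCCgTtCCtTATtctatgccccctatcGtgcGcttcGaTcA
Serpina1d: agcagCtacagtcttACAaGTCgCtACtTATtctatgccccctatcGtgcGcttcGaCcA
Serpina1e: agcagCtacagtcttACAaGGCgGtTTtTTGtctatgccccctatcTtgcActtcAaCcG

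Elsewhere the 5 genes are far more alike. Over 1242 aligned coding bases they differed at 86 positions, and the longest run identical in all 5 was 226 bases. Of all 60-base coding windows, 24.4% held no difference at all. A piece of the longest shared run, from Serpina1a at chr12:103857657-103857716 (minus strand, coding exon), shows sequence that is the same in all 5 genes.
Serpina1a: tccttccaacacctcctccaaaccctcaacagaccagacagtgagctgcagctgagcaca

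The 3 Serpina3 genes are less alike, and their most variable coding window holds 26 differing positions, again in capitals. It lies on the plus strand in coding exon sequence at chr12:104345267-104345326 in Serpina3k, chr12:104393767-104393826 in Serpina3m and chr12:104413446-104413505 in Serpina3n. No 60-base window was free of differences, and the longest run identical in all 3 was 39 bases.
Serpina3k: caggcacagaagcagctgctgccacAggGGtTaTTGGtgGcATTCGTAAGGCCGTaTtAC
Serpina3m: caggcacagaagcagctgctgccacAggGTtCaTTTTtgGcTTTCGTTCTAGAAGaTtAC
Serpina3n: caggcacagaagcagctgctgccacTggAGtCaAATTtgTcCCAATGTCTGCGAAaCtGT

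Serpina1a and Serpina1c were the closest pair, with 98.5% identical coding bases and 19 mismatches. The other Serpina1 pairs were between 96.3% and 97.0% identical. Serpina3k and Serpina3m were 92.5% identical, Serpina3m and Serpina3n 85.2%, and Serpina3k and Serpina3n 83.7%. A Serpina1 gene and a Serpina3 gene shared between 65.1% and 67.6% of their aligned coding bases.

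These differences set how much of each transcript can be assigned to 1 gene. Of the 75-base windows of Serpina1c, 33.9% occurred in no other annotated gene, against 42.5% for Serpina1a, 62.9% for Serpina1d, 74.9% for Serpina1b and 79.7% for Serpina1e. Serpina1c shared 62.9% of its 75-base windows with Serpina1a. The unique share rose with window length: at 300 bases it was 56.5% for Serpina1c and 66.2% for Serpina1a, and it reached 100% for Serpina1e. The Serpina3 genes were above 90% unique at 75 bases (90.3% to 98.5%), and Serpina3k and Serpina3m had only 7.36% and 9.21% of their windows in common. The gene models of Serpina3k and Serpina3m share their annotated start, so they overlap on the same strand.

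**Figure D1:**
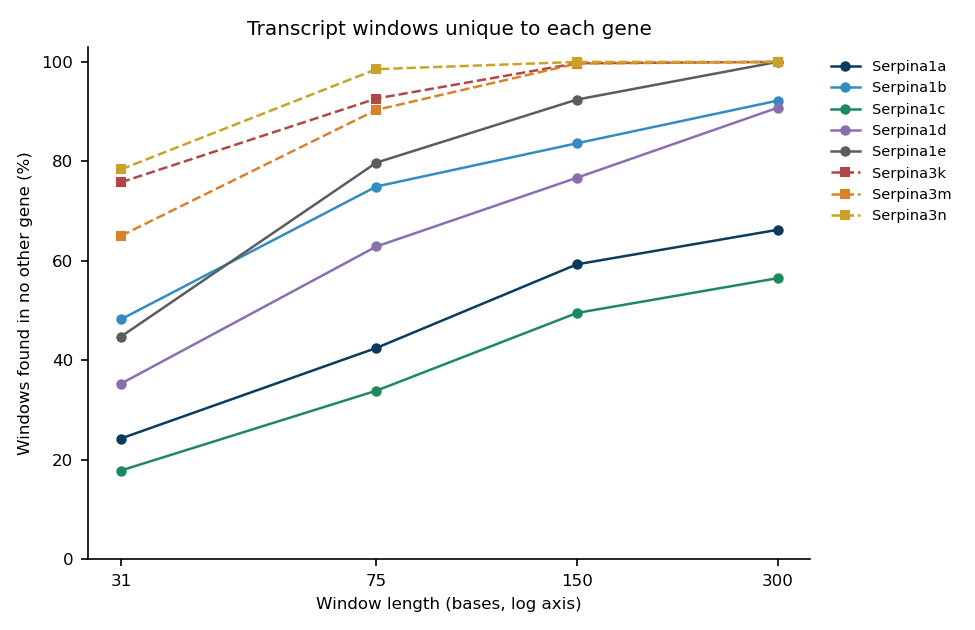
Share of transcript windows (%) found in no other annotated gene, against window length in bases (log axis), for the longest annotated transcript of each of the 8 genes. Serpina1c and Serpina1a have the lowest curves, and the 3 Serpina3 genes (dashed) are above 90% from 75 bases on.

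The deposited values are Salmon estimates, in which reads that match several copies are split by a model. Of the 8 genes, 7 had a value that was not a whole number in all 34 libraries, and Serpina3n in 22. The single-gene values below are therefore uncertain to the extent that reads were shared, and each cluster is also given as the sum of its members, which does not depend on the split within the cluster. Reads shared with genes outside the 8, such as Serpina3h, are not covered by the sums.

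Total estimated counts ranged from 19873400 to 41396100 per liver library, except in 1 pull-down library (slow ramp, long fragments) with 1126380. That library stood apart in several of the genes below, so the main results that rest on it are given with and without it. Hepatocyte marker genes (6 of 6 detected) held 1.12% to 9.69% of counts in every liver library, and cardiomyocyte markers at most 7.72e-05%. Levels are given as normalised CPM, that is, estimated counts scaled to a common library total (CPM) after TMM scaling (trimmed mean of M values) over the 33 liver libraries.

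The summed level of the 5 Serpina1 genes was 16201, 16260 and 16443 normalised CPM in the unselected libraries of batch 1 and 15757, 15687 and 15409 in batch 2. It ran from 24047 through a median of 25547 to 27501 after poly(A) selection, from 18087 through 20103 to 22417 after pull-down, and from 13276 through 13821 to 14028 after digestion. Poly(A) libraries were thus highest and digestion libraries lowest, with no overlap between any of the 3 methods or with the unselected libraries.

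The summed Serpina3 level was 4452, 4560 and 4586 normalised CPM in unselected batch 1 and 4485, 4484 and 4413 in batch 2. It ran from 6172 through 6482 to 6875 after poly(A) selection and from 3748 through 3812 to 3866 after digestion. After pull-down it ran from 4073 through 6701 to 7038. The lowest pull-down value belongs to the low-depth library; the other 8 started at 6378 and overlapped the poly(A) range, while all digestion libraries were below every other liver library.

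**Figure D2:**
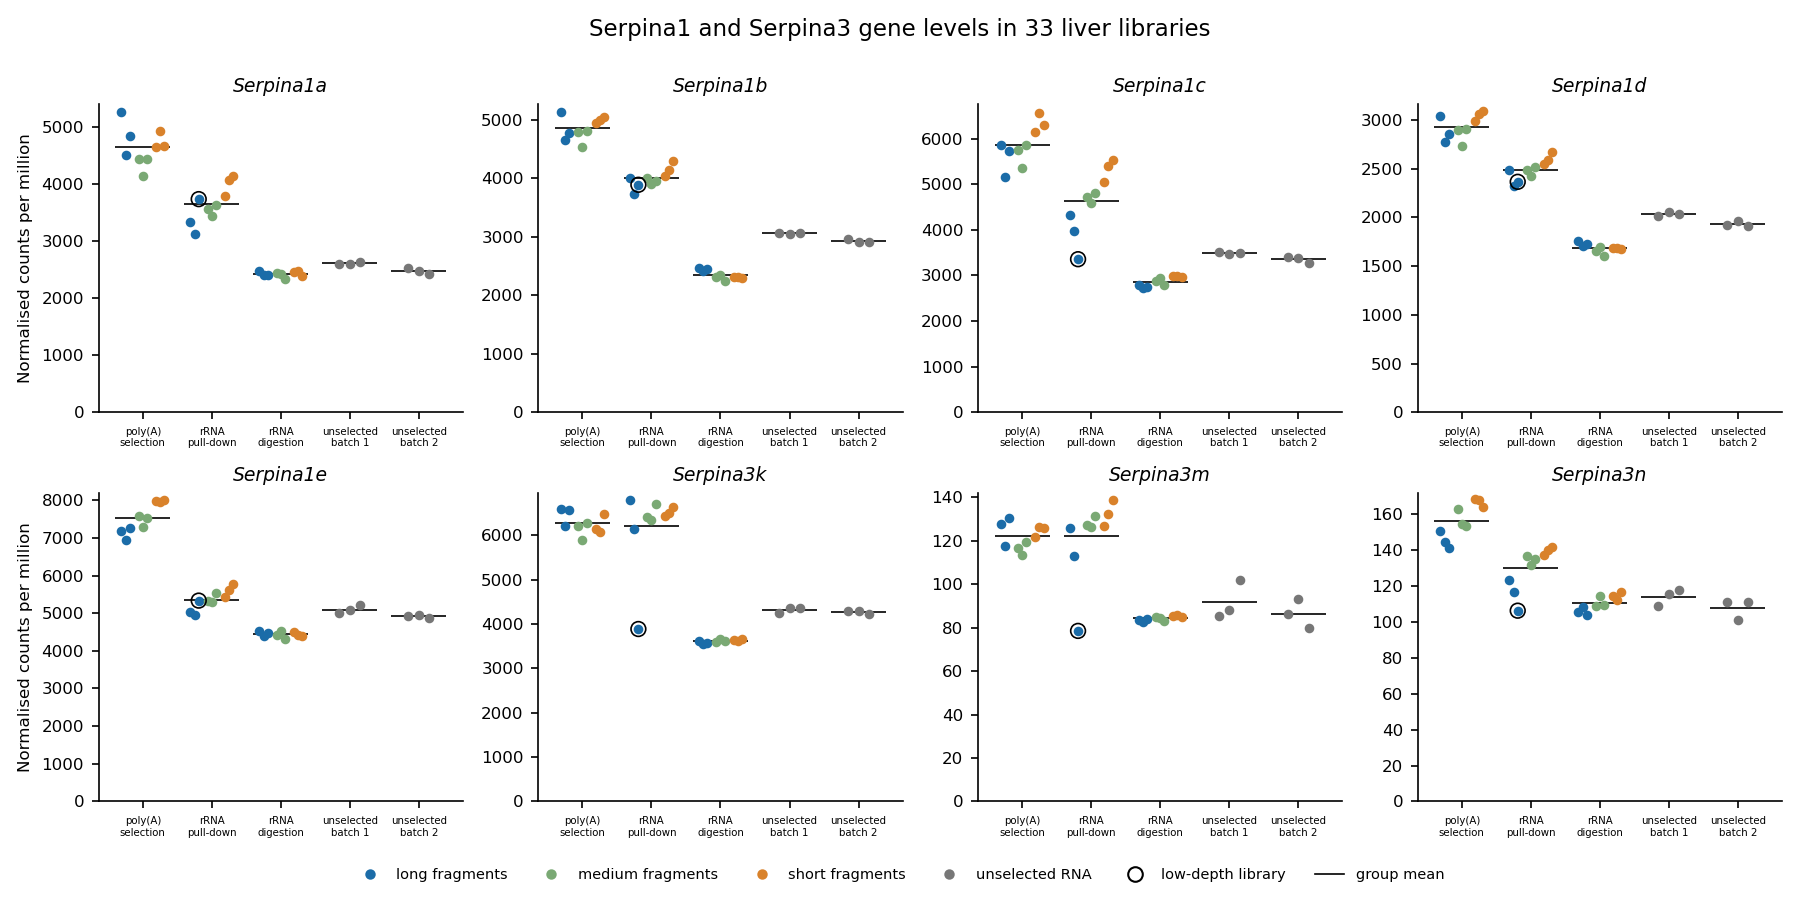
Normalised CPM (linear axis from 0) of each gene in the 33 liver libraries, grouped by preparation; points are libraries, colours give fragment length, lines are group means and the ring marks the low-depth library. Digestion libraries are at or near the bottom in every panel, and the ringed library is far below the other pull-down libraries for Serpina3k (3888.5 normalised CPM) and Serpina3m (78.5).

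Levels of different genes can be compared only per length, and were divided by the union of annotated exons of each gene. On this scale Serpina1e had the highest mean in 4 of the 5 liver groups, with 3152 ± 61.5 (SD, n = 3) normalised CPM per kilobase in unselected batch 1. There it was followed by Serpina1c with 2568 ± 17.4, Serpina3k with 2104 ± 28.9, Serpina1d with 1460.0 ± 16.3, Serpina1a with 1423 ± 10.7 and Serpina1b with 1270.2 ± 3.87 (SD, n = 3). None of these neighbours overlapped. Serpina3n (55.2 ± 2.25) and Serpina3m (53.4 ± 5.27) came last and did overlap. In the pull-down libraries Serpina1c (3411 ± 506) and Serpina1e (3316 ± 166; SD, n = 9) overlapped. With the longest transcript as the length, Serpina1b moved from the 6th to the 4th place in unselected batch 1, and the first 3 places kept their genes.

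The first question was how poly(A) selection changes the measured level of the genes against unselected RNA of the same batch. All 8 genes were higher after selection. Serpina1a was at 2593, 2598 and 2629 normalised CPM in the unselected libraries and ran from 4139.7 through 4644 to 5252 after poly(A) selection. The groups did not overlap, and the 1.74-fold difference gave a log2 fold change of 0.80 ± 0.07 (SE; edgeR quasi-likelihood test, Benjamini-Hochberg adjusted p = 6.94e-11).

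Serpina1c rose by a log2 fold change of 0.73 ± 0.08, Serpina1b by 0.64 ± 0.05, Serpina1e by 0.57 ± 0.05 and Serpina1d by 0.50 ± 0.05 (SE), and the Serpina1 sum was higher by 0.65 ± 0.06. Serpina3k, which binds tissue kallikrein, rose by 0.53 ± 0.10, Serpina3m by 0.41 ± 0.09 and Serpina3n, an acute-phase inhibitor of granzyme B, by 0.46 ± 0.05. The adjusted p-values of the 8 genes ran from 1.01e-11 to 0.000267 in edgeR's quasi-likelihood test with Benjamini-Hochberg adjustment. For all 8 the ranges of the poly(A) and unselected libraries did not overlap. Overlap of ranges was counted for the 8 genes only, here and below, and not over all genes. Across all genes 50.4% were called in this comparison, so calls were common. The median log2 fold change was 0.55 over the 8 genes and 0.04 over all genes tested.

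All 8 genes were also called higher in pull-down libraries than in unselected RNA of their batch, where 32.8% of all genes were called. The ranges overlapped for 5 of the 8 genes (Serpina1c, Serpina1e, Serpina3k, Serpina3m and Serpina3n), and without the low-depth library for Serpina1e alone. Serpina3k had 4287, 4290.0 and 4223 normalised CPM in unselected batch 2 and ran from 3888.5 through 6437 to 6789 after pull-down. Only the low-depth library fell below the unselected range, and without it the lowest pull-down value was 6148. The log2 fold change was 0.53 ± 0.10 (SE; edgeR quasi-likelihood test, adjusted p = 0.000134) with that library and 0.63 ± 0.03 (adjusted p = 1.00e-15) without it.

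Within the Serpina1 cluster the size of the pull-down difference was uneven. Serpina1a was higher by a log2 fold change of 0.52 ± 0.07, Serpina1c by 0.45 ± 0.08, Serpina1b by 0.42 ± 0.05 and Serpina1d by 0.34 ± 0.05 (SE), but Serpina1e by 0.14 ± 0.05. Serpina1e ran from 4942 through 5333 to 5780.5 normalised CPM after pull-down, against 4926, 4958 and 4877 in unselected batch 2, so the groups overlapped. Its adjusted p was 0.0440 in edgeR's quasi-likelihood test and 0.149 in DESeq2, so its call depends on the tool, and it was also lost without any 1 of the unselected libraries. The Serpina1 sum was higher by 0.35 ± 0.06 and the Serpina3 sum by 0.52 ± 0.10, or 0.62 ± 0.03 without the low-depth library. When only these 2 groups were fitted, 5 of the 8 genes passed: Serpina1e, Serpina3k and Serpina3n did not, and 2811 of 14358 genes passed in all.

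Digestion gave lower values than unselected RNA for the genes that passed. Serpina1b was at 2969, 2913 and 2914 normalised CPM in unselected batch 2 and ran from 2237 through 2317 to 2468 after digestion. Every digestion library was lower, and Serpina1b fell by 0.34 ± 0.05 on the log2 scale (SE; edgeR quasi-likelihood test, adjusted p = 7.68e-06). Serpina1c fell by 0.24 ± 0.08 (adjusted p = 0.0359), a call lost without any 1 of the unselected libraries, and Serpina1d fell by 0.22 ± 0.05 (adjusted p = 0.00133). These 3 of 8 were called, against 14.7% of all genes. Serpina1e, at −0.13 ± 0.05, Serpina3k, at −0.25 ± 0.10, Serpina1a, Serpina3m and Serpina3n did not pass.

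Without the low-depth pull-down library, which enters this comparison only through the shared estimate of spread, scaling and covariates, 5 of 8 genes were called, against 2718 of 15384 genes in all. Serpina3k then had a log2 fold change of −0.22 ± 0.03 (SE; adjusted p = 3.46e-06, edgeR quasi-likelihood test) and Serpina1e one of −0.14 ± 0.04 (adjusted p = 0.0101). The Serpina1 sum had a log2 fold change of −0.19 ± 0.06 in the fit of all libraries. These directions hold after TMM scaling: divided by library totals, all 8 genes were higher after digestion, by 2.47 to 2.86 on the log2 scale, where the median of all genes was higher by 2.85. Relative to that median the 8 genes lay between −0.37 and 0.01, against −0.38 and 0.00 with TMM scaling. Unselected libraries serve both pull-down and digestion, so the last 2 comparisons share their controls.

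Set directly against each other at matched ramp and fragment length, digestion was called below pull-down for all 8 genes, in a comparison with 70.7% of all genes called. Serpina3m was higher after digestion in 1 of 9 matched pairs, that of the low-depth library, which stood at 78.5 normalised CPM. Serpina3k ran from 3557 through 3614 to 3664 normalised CPM after digestion, below every pull-down library, including the low-depth one at 3888.5. It fell by 0.78 ± 0.06 on the log2 scale (SE; edgeR quasi-likelihood test, adjusted p = 2.03e-12). Serpina3n, at 104.0 to 116.5 normalised CPM after digestion and 106.2 to 142.0 after pull-down, fell by only 0.24 ± 0.03 (adjusted p = 7.15e-09). Without the low-depth library its pull-down values started at 116.8, so the ranges no longer overlapped. The Serpina3 sum was lower by a log2 fold change of −0.76 ± 0.06, or −0.83 ± 0.02 without the low-depth library, close to that of Serpina3k alone, which holds most of it.

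In the Serpina1 cluster the same comparison spread from −0.27 ± 0.03 for Serpina1e to −0.77 ± 0.03 for Serpina1b (log2 fold change, SE). Serpina1c was at −0.69 ± 0.05, Serpina1a at −0.59 ± 0.04 and Serpina1d at −0.56 ± 0.03, and the sum was at −0.55 ± 0.04. Serpina1e and Serpina1b are 96.3% identical in their coding bases. In 9 of 9 matched pairs the digestion library was lower for each of the 5 genes, a count that was not made over all genes. Divided by library totals, where the median of all genes was at 0.55, Serpina1e and Serpina3n had values above 0, and all 8 genes were below that median, at −0.76 to −0.23 relative to it, against −0.77 to −0.23 with TMM scaling.

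Between poly(A) selection and pull-down, 5 of 5 Serpina1 genes and 1 of 3 Serpina3 genes were called, and the clusters were not tested against each other. All 5 Serpina1 genes were higher after poly(A) selection, by 0.23 ± 0.03 for Serpina1d to 0.49 ± 0.03 for Serpina1e (log2 fold change, SE), and the sum by 0.36 ± 0.04. Serpina3n was higher by 0.26 ± 0.03. Serpina3k, at 5904 to 6596 normalised CPM after poly(A) selection, had a log2 fold change of 0.02 ± 0.06 (edgeR quasi-likelihood test, adjusted p = 0.808) and Serpina3m one of −0.03 ± 0.05 (adjusted p = 0.628). In total 6 of 8 genes were called, against 72.6% of all genes. Without the low-depth library Serpina3k turned to −0.06 ± 0.02 (adjusted p = 0.0136), that is, slightly lower after poly(A) selection, with 7 of 8 genes called and 11402 of 15384 in all.

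Against digestion, poly(A) selection was higher for all 8 genes, with no overlap between any of the libraries, where 80.6% of all genes were called. The log2 fold change was largest for Serpina1b (1.05 ± 0.03) and Serpina1c (1.03 ± 0.05), and smallest for Serpina3n (0.50 ± 0.03) and Serpina3m (0.53 ± 0.05; SE). Serpina3k was higher by 0.80 ± 0.06. The adjusted p-values of the 8 genes ran from 2.39e-23 to 2.83e-11 in edgeR's quasi-likelihood test. Within batches, against unselected RNA, Serpina1b was at 0.64 after poly(A) selection and −0.34 after digestion, and Serpina3n at 0.46 and 0.04. The comparisons among the 3 methods share libraries pairwise, so their values are not independent of each other.

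**Figure D3:**
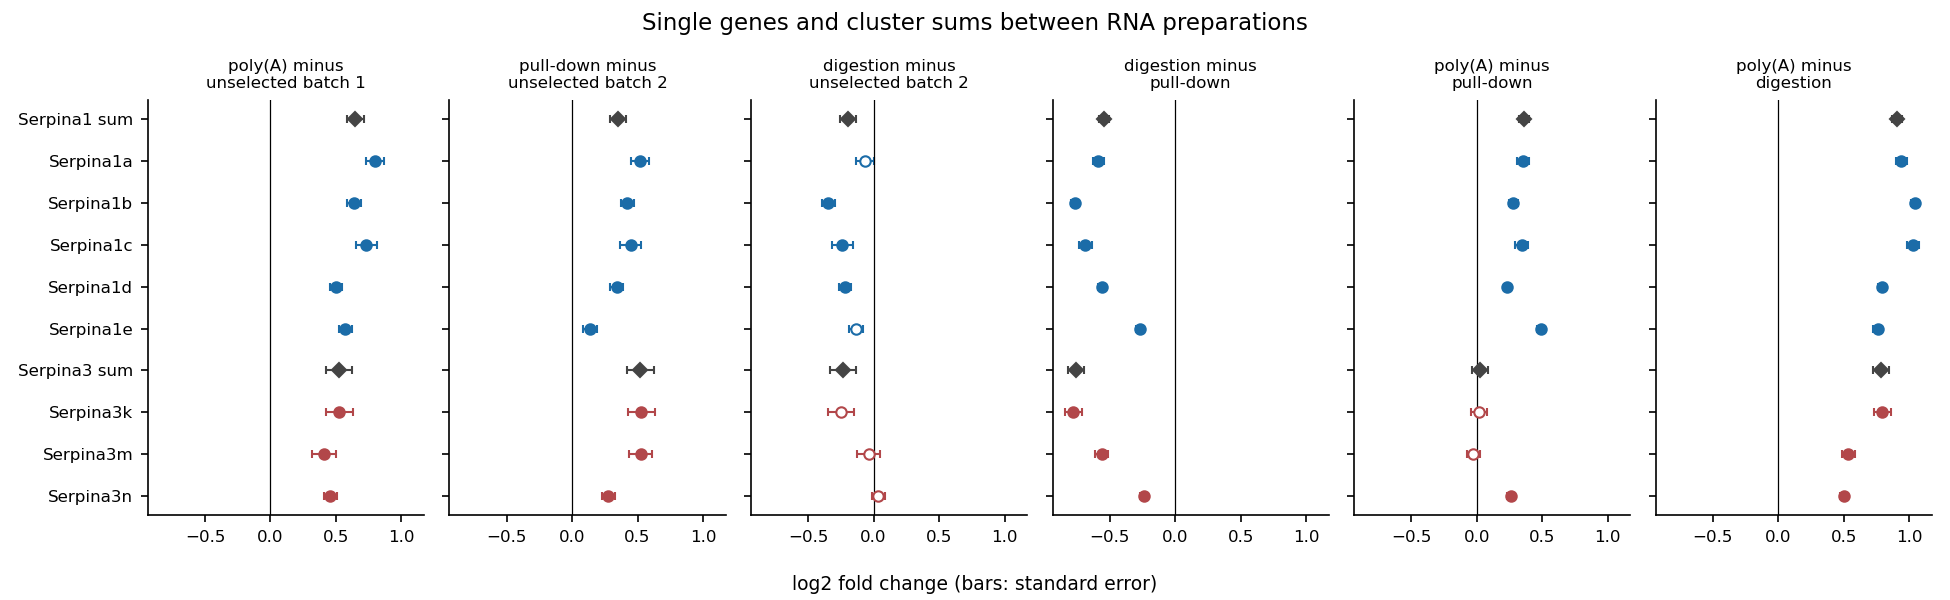
Log2 fold changes (points) with standard errors (bars) of the 8 genes and the 2 cluster sums (diamonds) in 6 comparisons of preparations; filled circles passed an adjusted p of 0.05, and sums were not tested. Genes of 1 cluster do not move by the same amount: in digestion minus pull-down Serpina1e is at −0.27 and Serpina1b at −0.77.

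The 2 unselected batches differed little. Batch 2 minus batch 1 gave log2 fold changes between −0.09 (Serpina3m) and −0.02 (Serpina3k), and 0 of 8 genes were called by edgeR's quasi-likelihood test or by DESeq2, with 0 at an unadjusted p under 0.05. Over all genes edgeR called 0% and DESeq2 called 17 genes, with 848 at an unadjusted p under 0.05 in edgeR. For each of the 5 Serpina1 genes every batch 2 library was below every batch 1 library in normalised CPM. Their log2 fold changes were between −0.07 and −0.05, against a median of −0.02 over all genes. This order was not counted over all genes, and the 5 values share reads and 1 scaling, so it is not read as a batch difference.

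How the counts of the Serpina1 cluster were divided among its copies also depended on the preparation. These shares are descriptions of estimated counts, with no test, and a change in 1 share is tied to the others because they add up to the whole. Serpina1e held 30.9%, 31.2% and 31.7% of the cluster in unselected batch 1 and 31.3%, 31.6% and 31.6% in batch 2. It held 31.8% to 32.5% after digestion, with every library above the unselected ones, and 27.2% to 30.3% after poly(A) selection. After pull-down it held 25.8% to 28.6%, and every pull-down library was below every unselected and digestion library.

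Serpina1b took a larger share after pull-down and a smaller one after digestion. It held 18.6% to 18.9% of the cluster in unselected batch 2, 19.0% to 20.9% after pull-down and 16.6% to 17.7% after digestion. Neither method overlapped this unselected range. Serpina1a had a larger share under all 3 methods: it held 15.8% to 16.0% in the 6 unselected libraries, and its lowest share in any selected library was 17.2%. Serpina1d held 11.1% to 11.6% after poly(A) selection and 11.9% to 13.0% after pull-down, so its share was lowest with poly(A) selection, below all other liver libraries.

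**Figure D4:**
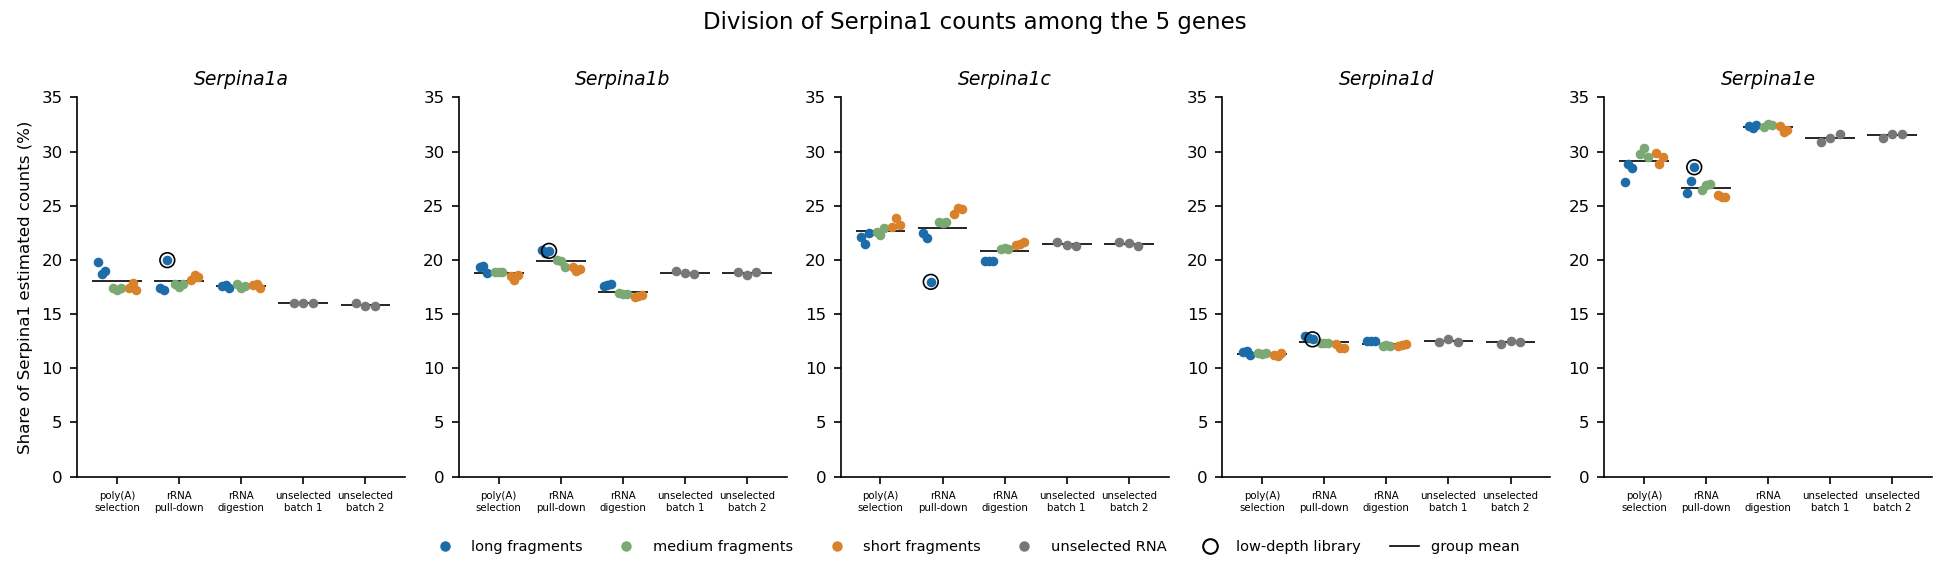
Share (%) of the summed Serpina1 estimated counts held by each of the 5 genes in the 33 liver libraries; points are libraries, colours give fragment length, lines are group means and the ring marks the low-depth library. Serpina1e is lowest after pull-down (25.8% to 28.6%), and Serpina1c steps up from long to short fragments after pull-down and digestion.

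The Serpina3 cluster was carried by 1 gene. Serpina3k held 94.8% to 96.5% of its estimated counts in every liver library. Serpina3n held 2.76% to 3.01% after digestion, above all unselected libraries (2.25% to 2.57%), and 1.75% to 2.07% after pull-down without the low-depth library, which had 2.61%. Serpina3m held 2.17% to 2.26% after digestion and 1.77% to 2.00% after pull-down. The ratio of the summed Serpina3 to the summed Serpina1 counts was 0.278 ± 0.00290 (SD, n = 3) in unselected batch 1 and 0.286 ± 0.000908 (SD, n = 3) in batch 2. It was 0.277 ± 0.00513 after digestion, 0.254 ± 0.0121 after poly(A) selection and 0.321 ± 0.0430 after pull-down (SD, n = 9), where the low-depth library had the lowest value of all, 0.218. The other 8 pull-down libraries had a ratio of 0.334 ± 0.0202 (SD, n = 8).

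Fragment length was compared next, long against short within each method at the same ramp rates. The labels give no length in bases. After digestion Serpina1c was at 2751, 2716 and 2795 normalised CPM with long fragments and at 2967, 2981 and 2978 with short ones. The groups did not overlap, and Serpina1c fell by 0.11 ± 0.02 on the log2 scale with long fragments (SE; edgeR quasi-likelihood test, adjusted p = 7.69e-05). Serpina1b moved the other way in the same libraries, from 2292, 2317 and 2315 with short fragments to 2451, 2414 and 2468 with long ones, again without overlap. Its log2 fold change was 0.08 ± 0.01 (adjusted p = 0.00111).

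The sum of the 5 genes hardly differed in these libraries, with a log2 fold change of −0.0027 ± 0.0117 (SE). Serpina1b and Serpina1c thus differed in opposite directions while the difference of the sum was smaller than its standard error. Serpina3n was the third gene called, at 104.0, 108.3 and 105.7 normalised CPM with long and 116.5, 112.1 and 114.3 with short fragments, and it fell by 0.11 ± 0.02 (adjusted p = 0.00456). So 3 of 8 genes were called, against 18% of all genes.

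In the poly(A) libraries 4 of 8 genes were called, all lower with long fragments, where 55.2% of all genes were called. Serpina1e was at 7255, 6935 and 7192 normalised CPM with long and at 7999.7, 7940.2 and 7971 with short fragments. The groups did not overlap, and Serpina1e fell by 0.18 ± 0.01 on the log2 scale (SE; edgeR quasi-likelihood test, adjusted p = 1.95e-06). Serpina1c fell by 0.20 ± 0.04 (adjusted p = 0.00147), Serpina3n fell by 0.21 ± 0.03 (adjusted p = 6.75e-05) and Serpina1d fell by 0.09 ± 0.03 (adjusted p = 0.0183). Here the Serpina1 sum was lower too, by a log2 fold change of −0.11 ± 0.03, and the Serpina3 sum was at 0.03 ± 0.02. The call of Serpina1d was lost when any of 4 single libraries was left out.

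In the pull-down libraries edgeR called 0 of 8 genes, against 6.08% of all genes, with 3 at an unadjusted p under 0.05. DESeq2 called 4, Serpina1a, Serpina1c, Serpina1e and Serpina3n, and 1339 of 14426 genes in all. Serpina1c was at 3357, 3981 and 4318 normalised CPM with long fragments and at 5543, 5411 and 5055 with short ones, without overlap, and its log2 fold change was −0.46 ± 0.11 (SE; edgeR quasi-likelihood test, adjusted p = 0.0501). Without the low-depth library edgeR called the same 4 genes as DESeq2, all lower with long fragments: Serpina1c was at −0.33 ± 0.05, Serpina1a at −0.28 ± 0.05, Serpina3n at −0.20 ± 0.04 and Serpina1e at −0.14 ± 0.04. Serpina3k went from −0.23 ± 0.17 with that library to 0.01 ± 0.04 without it. Over all genes 877 of 14426 were called with that library and 5399 of 14432 without it.

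Over the 3 methods together, Serpina1c fell by 0.24 ± 0.05 (adjusted p = 0.000531), Serpina3n fell by 0.17 ± 0.03 (adjusted p = 4.56e-05) and Serpina1e fell by 0.09 ± 0.03 on the log2 scale with long fragments (adjusted p = 0.0345; edgeR quasi-likelihood test), so 3 of 8 genes were called against 44.7% of all genes. In 9 of 9 pairs matched by method and ramp, Serpina1c and Serpina3n were lower with long fragments. Such pairs were not counted over all genes. Whether the length difference itself varied between methods was tested by an interaction. It did for Serpina1c (adjusted p = 0.0356) and Serpina1e (adjusted p = 0.0336), 2 of 8 genes, against 31% of all genes. With DESeq2's size factors in edgeR the call of Serpina1e was lost (adjusted p = 0.124) and that of Serpina1c was not (adjusted p = 0.0211). Without the low-depth library 6 of 8 genes passed that test, all but Serpina3k and Serpina3m, as did 6208 of 15743 genes in all.

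**Figure D5:**
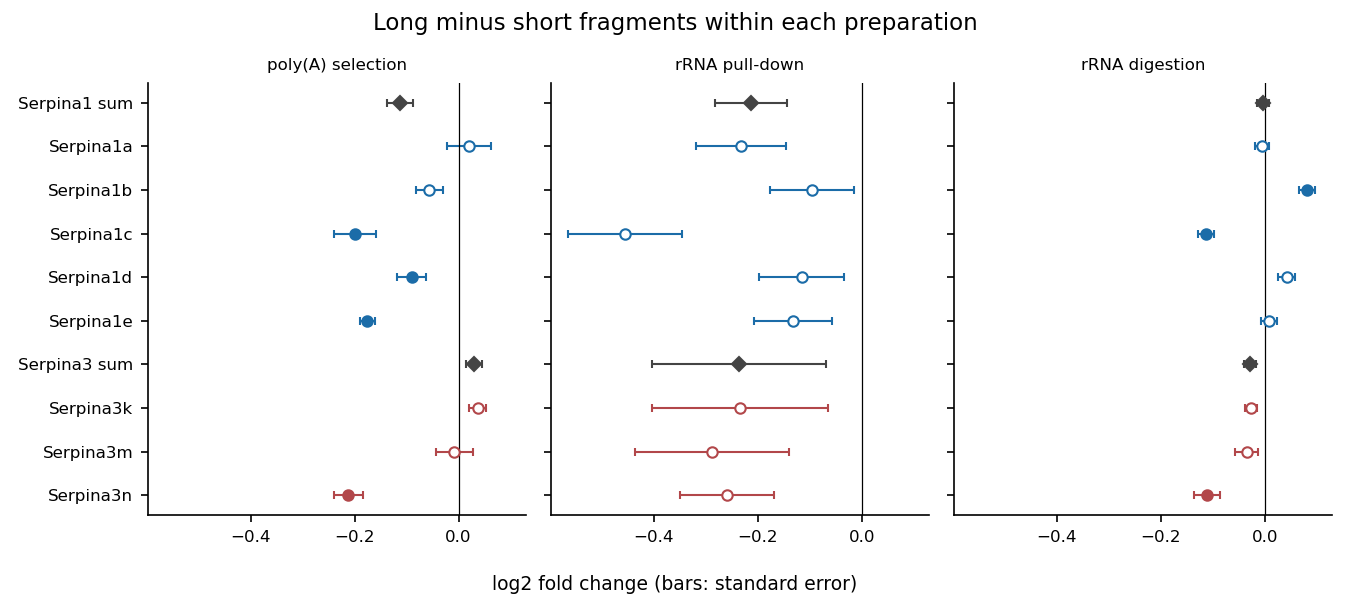
Log2 fold changes of long minus short fragments (points) with standard errors (bars) within each method, for the 8 genes and the 2 cluster sums (diamonds, not tested); filled circles passed an adjusted p of 0.05. Serpina1c and Serpina3n lie left of 0 in all 3 panels, and in the digestion panel the Serpina1 sum is at 0 while Serpina1b and Serpina1c lie on opposite sides.

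The share of Serpina1c was also set out by fragment length. After digestion Serpina1c held 19.9% of the cluster in each of the 3 long-fragment libraries, 21.0% to 21.1% with medium fragments and 21.4% to 21.6% with short ones. After pull-down it held 18.0%, 22.0% and 22.5% with long fragments, of which the first is the low-depth library, 23.4% to 23.5% with medium and 24.2% to 24.8% with short fragments. After poly(A) selection it held 21.5% to 22.5% with long, 22.3% to 22.9% with medium and 23.0% to 23.9% with short fragments, and only long and medium overlapped. Over all 9 pairs matched by method and ramp, Serpina1c had the smaller share with long fragments in 9, with a mean difference of −2.22 percentage points (SD 1.82), or −1.66 points (SD 0.693) over the 8 pairs without the low-depth library. Serpina1b had the larger share in 9 of 9, by 1.12 points (SD 0.482), and Serpina1d in 8 of 9, by 0.463 points (SD 0.338).

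Serpina1a, the closest relative of Serpina1c, did not follow 1 direction. Its share was larger with long fragments in 3 of 3 poly(A) pairs, by 1.69 points (SD 0.814), and had a mean difference of −0.209 points after pull-down (1 of 3 pairs higher), or −1.09 points without the low-depth library (0 of 2 higher), and of −0.0341 points after digestion, where the shares ranged from 17.4% to 17.8%. Added together, Serpina1a and Serpina1c held 37.4% ± 0.232 and 37.3% ± 0.342 of the cluster in the 2 unselected batches (SD, n = 3), 38.4% ± 0.731 after digestion, 40.7% ± 0.859 after poly(A) selection and 41.04% ± 1.81 after pull-down (SD, n = 9). Long minus short fragments, the share of the pair differed by 0.346 points after poly(A) selection, −1.62 points after digestion and −3.96 points after pull-down, or −3.34 points over the pull-down pairs without the low-depth library. This pair was added after the single values had been seen.

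None of the 8 genes was called for the ramp rate of the amplification. Fast minus slow over the 3 methods gave log2 fold changes between −0.02 (Serpina1e) and 0.05 (Serpina3k), and 0 of 8 genes were called by edgeR's quasi-likelihood test or DESeq2, with 0 at an unadjusted p under 0.05. Over all genes 0.0328% were called, or 5 genes, and DESeq2 called 8. The standard error was 0.03 for Serpina1b, Serpina1d, Serpina1e and Serpina3n and at most 0.07, for Serpina3k.

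Heart RNA was represented by 1 unselected library, so there is no test, and intervals cover counting error only. The summed Serpina1 estimate was 404.9 counts in heart, 0.494% of the mean CPM in unselected liver of batch 1 (exact Poisson interval at 95%, 0.448% to 0.545%). Single Serpina1 genes were between 0.450% (Serpina1b) and 0.551% (Serpina1e) of liver, Serpina3k at 0.455% and Serpina3m, from 2.04 counts, at 0.443%. Of the hepatocyte markers, Alb was at 0.498%, Ttr at 0.527%, Apoa1 at 0.603%, Cps1 at 0.494%, Tat at 0.429% and Fgb at 0.506%. The part that hepatocyte RNA plays in the heart values was not tested.

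Serpina3n stood apart in heart. It had 22 counts, or 3.84% of its liver CPM (2.41% to 5.82%), and its interval lies above those of the other 7 genes, whose upper bounds reach at most 1.57% (Serpina3m). In heart Serpina3n stood at 0.987 CPM of the library total, against 25.7 ± 1.25 (SD, n = 3) in liver.

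Other genes of the pathway give the setting. Of 29 other serpin genes, 22 passed the filter on low counts. After poly(A) selection 11 were higher and 1 lower than in unselected RNA, with Serpina12, also called vaspin, changed most (1.28 ± 0.35), and the median log2 fold change was 0.36 against 0.04 over all genes, of which 50.4% were called. Serpina12 was low in every group, with means between 0.61 and 1.48 normalised CPM and at most 97 counts in a liver library. After pull-down 10 were higher and 0 lower, led by Serpinb6a (0.78 ± 0.18), with a median of 0.39 against 0.06 over all genes, of which 32.8% were called. After digestion 3 were lower and 0 higher, led by Serpina3f (−0.66 ± 0.17; log2 fold change, SE), with a median of −0.05 against 0.04 over all genes, of which 14.7% were called.

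Between the rRNA removal methods 18 of the 22 were lower after digestion than after pull-down and 0 higher, led by Serpina12 (−0.99 ± 0.12), with a median of −0.40 against −0.01 over all genes, of which 70.7% were called. Poly(A) selection against pull-down gave 11 higher and 8 lower, led by Serpina3f (−1.12 ± 0.07), where 72.6% of all genes were called. Against digestion it gave 14 higher and 3 lower, led by Serpina12 (1.29 ± 0.11), where 80.6% of all genes were called. Long against short fragments gave 3 higher and 8 lower of 21 tested after poly(A) selection, led by Serpina7, thyroxine-binding globulin (0.54 ± 0.04), 0 after pull-down, and 2 higher and 3 lower after digestion, led by Serpinh1 (0.27 ± 0.08; log2 fold change, SE). The shares called over all genes were 55.2%, 6.08% and 18% in these length comparisons.

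All 11 listed genes that fold, carry or dispose of alpha-1-antitrypsin in the endoplasmic reticulum were tested. Against unselected RNA 5 rose and 4 fell with poly(A) selection, led by the chaperone Canx (−0.60 ± 0.10). After pull-down 6 rose and 2 fell, led by Syvn1, a ubiquitin ligase of protein disposal (−1.30 ± 0.14). After digestion 1 rose and 3 fell, led by the chaperone Hspa5 (−0.36 ± 0.07; log2 fold change, SE). Digestion against pull-down gave 3 higher and 7 lower, led by Syvn1 (1.38 ± 0.08), poly(A) selection against pull-down 1 higher and 4 lower, led by Syvn1 (1.54 ± 0.07), and poly(A) selection against digestion 6 higher and 5 lower, led by the cargo receptor subunit Mcfd2 (0.65 ± 0.03). In the order of these 6 comparisons, the list's median log2 fold changes were 0.18, 0.15, −0.05, −0.16, −0.06 and 0.10, and the shares called over all genes were 50.4%, 32.8%, 14.7%, 70.7%, 72.6% and 80.6%.

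Across the 33 liver libraries, the 5 genes whose log2 levels were most like the Serpina1 sum among 6581 genes compared were Sord (Pearson r = 0.983), Hsd17b10 (0.981), Oaz1 (0.980), Upb1 (0.980) and Pck1 (0.979). Among those most like the Serpina3 sum were Ces1d (0.996), C8a (0.987), Sqor (0.987) and Mat1a (0.986). These are descriptions over libraries of 1 RNA that share the preparation groups.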

How the data were processed

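The deposited table holds estimated counts per gene that the authors made with Salmon 1.9.0, with UMI-tools 1.1.1 and R 4.4.0 also named, on GRCm38, per the submitters' processing notes. The transcript set, bias correction and treatment of unique molecular identifiers are not given in the sources used here. Of the nonzero values 27.0% were not whole (tolerance 1e-06), and they were rounded before testing. Of 51368 identifiers, 50896 matched a symbol.

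Tests used edgeR 4.0.16 (R 4.3.3; quasi-likelihood, TMM scaling, default filter on low counts, Benjamini-Hochberg adjustment over all genes, threshold 0.05). Method comparisons were fitted on all 33 liver libraries with ramp and fragment length as covariates, and length and ramp comparisons on the selected libraries. Standard errors were approximated from the fold change and its F statistic. Cluster sums entered as added features without p-values. The procedure was tested on simulated data. Alternatives were DESeq2 1.42.0, its size factors, library totals, totals left after rRNA genes, Lars2 and mitochondrially encoded genes were taken out, no filter, no covariates, only the groups compared, a replicate block, leaving out the low-depth library in all comparisons, each unselected library in comparisons with unselected RNA, and each library of a method in its length comparison. Leaving the low-depth library out of the ratio and shares was chosen after seeing the data.

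The members and lists were chosen with earlier results of these data known. Named genes are the 8 members, the most changed called gene of the lists of other serpins and of handling genes in a comparison, and the 5 genes with the highest Pearson r to each sum (mean of at least 10 normalised CPM, log2 with an offset of 1). One gene that this rule names and the list of regulators are not reported here. Sequences were aligned with MAFFT 7.526. Replicate numbers of the unselected libraries only number libraries and were not used as pairs.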

Additional observations from a re-analysis of the deposited data

Results flagged for a closer look

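The pull-down library with slow ramp, long fragments and 1126380 counts stood apart from the other 8 of its method in 6 of the 18 sets of pull-down values examined, and no library did in the 18 sets of each of the other methods; chance marks about 1 in 20 independent sets, but these sets share libraries and counts, so the number is not read against that rate. Its Serpina3 sum was 4073.2 normalised CPM, against 6378 in the next lowest library. Serpina3k was at 3888.5 (next 6148) and Serpina3m at 78.5 (next 112.9). Its Serpina1a share of the Serpina1 counts was the highest, 20.0% (next 18.6%), and its Serpina1c share the lowest, 18.0% (next 22.0%). Its Serpina3n share of the Serpina3 counts was 2.61%, against 2.07% in the next highest library. The part of the low depth in these values was not tested.

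The difference between long and short fragments itself differed between the 3 methods for Serpina1c (adjusted p = 0.0356) and Serpina1e (adjusted p = 0.0336) in the interaction test of edgeR's quasi-likelihood fit. These 2 of 8 genes stand against 31% of all genes. With DESeq2's size factors in edgeR's test Serpina1e did not pass (adjusted p = 0.124). DESeq2's own test called 5 of the 8 genes, and 4996 of 15230 genes in all. Serpina1c was lower with long fragments in all 3 methods, by log2 fold changes of −0.20 after poly(A) selection, −0.46 after pull-down and −0.11 after digestion. Serpina1e was at −0.18, −0.13 and 0.01 in the same order.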

How the results depend on the processing

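Single-gene values were recomputed for the method comparisons of all 8 genes. For length and its interaction they cover Serpina1b, Serpina1c, Serpina1d, Serpina1e and Serpina3n, and for part of the length comparisons Serpina3k. Batch and ramp are not included, and the interaction has no direction, so only its calls count. Of 773 such values, 677 kept their direction and their side of the threshold, 25 lost a call, 46 gained one and 25 reversed. Causes were not tested. These counts include 10 reversals under library totals and 6 under totals without rRNA, Lars2 and mitochondrial genes, scalings that shift all genes together, while the members' range relative to the median of all genes moved little (digestion against pull-down −0.77 to −0.23 under TMM and −0.76 to −0.23 under library totals). By library totals the median of all genes moved to log2 fold changes of 2.67, 2.31 and 2.85 (poly(A) selection, pull-down and digestion against unselected RNA), 0.55 (digestion against pull-down), 0.32 (poly(A) selection against pull-down) and −0.28 (poly(A) selection against digestion). Digestion against unselected RNA then had 8 genes called, as were 15143 of 15422 genes in all, and Serpina1a reversed to 2.75, Serpina1b to 2.47, Serpina1c to 2.58, Serpina1d to 2.60, Serpina1e to 2.68, Serpina3k to 2.57 and Serpina3m to 2.78. Digestion against pull-down had 5 called (12631 of 15422 in all), with Serpina1e at 0.29 and Serpina3n at 0.32, and Serpina3m was at 0.29 for poly(A) selection against pull-down. Library totals also gave 5 called for length after pull-down (2498 of 14426 genes in all), 6 over the 3 methods (6775 of 15230) and 7 in the interaction (6798 of 15442). With totals left after rRNA genes, Lars2 and mitochondrially encoded genes were taken out, digestion against pull-down gave 0.0072 for Serpina1e and 0.039 for Serpina3n, digestion against unselected RNA 0.0027 for Serpina1a and 0.029 for Serpina3m, poly(A) selection against pull-down 0.0040 for Serpina3m, and pull-down against unselected RNA −0.074 for Serpina1e. Length after pull-down then had 1 called (783 genes in all).

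For digestion against unselected RNA, DESeq2 and its size factors in edgeR each called 5 genes (2405 and 2146 in all), with Serpina3n at −0.0066 and −0.0076, a fit of only those groups called 6 (3266 of 14998 in all), and with no filter Serpina3m was at 0.0094. For length after pull-down DESeq2 called 4 (1339 in all), its size factors 1 (921), no covariates 2 (2061 of 14128) and no filter 1 (997 of 24130). For the interaction DESeq2 called 5 (4996 of 15230 in all) and its size factors 1 (4770 of 15442). A fit of only pull-down and unselected RNA called 5 (2811 of 14358 in all). Leaving out each unselected library of batch 2 or the low-depth library gave 2 to 5 called for digestion against unselected RNA (1303 to 2718 in all). Leaving out each pull-down library gave 0 to 4 for length after pull-down (77 to 5399 in all). Leaving out the low-depth library gave 6 for the interaction (6208 of 15743 in all). Over the unselected libraries left out, digestion against unselected RNA ranged from −0.090 to 0.021 for Serpina3m and from −0.0039 to 0.065 for Serpina3n, and both reversed without batch 2 replicate 2. Serpina1e ranged from −0.0072 (without digestion replicate 1) to 0.028 for length after digestion. Serpina3k ranged from −0.405 to 0.015 for length after pull-down. Without the low-depth library it was at 0.015 there, at 0.0062 over the 3 methods and at −0.056 for poly(A) selection against pull-down.

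With the replicate number as a block, the unselected batches gave 0 members called, as without it, and 82 of 10958 genes over the whole table, against 41 of 10642 in a fit of the same 6 libraries without the block and 0 of 15422 in the fit of all 33. The numbers do not pair the libraries: same-numbered libraries had correlations of deviations of 0.05, −0.0043 and −0.04 over 6476 genes, and not every library correlated best with its own number. A total of 1126380 counts limits what the low-depth library can show.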
